A study of Homo sapiens with 6 samples.

Results

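The leukocyte immunoglobulin-like receptors (LILRs) and their relative LAIR1 were followed here by 21 of the 54675 probe sets of Affymetrix Human Genome U133 Plus 2.0 arrays. These were all the probe sets that the platform annotation assigns to exactly 1 gene symbol among LILRB1, LILRB2, LILRB3, LILRB4, LILRB5, LAIR1, LILRA1, LILRA2 and LILRA5. They represented 8 of the 9 genes. LILRB4 had no probe set of that kind and is not analysed here. The arrays held RNA of THP1, a human acute myeloid leukaemia cell line of monocytic type. Of the 6 samples, 3 were untreated and 3 were exposed for 48 hours to plate-bound Dll4-Fc, a fusion of the extracellular Notch ligand DLL4 with the Fc portion of an antibody. The treatment protocol gives the coating as 30 nM with vehicle as the control, while the sample labels give 60 nM and call the control untreated. All samples shared the same serum-containing medium, no coating with Fc alone is named, and a single cell line limits the model. The labels do not say whether replicates were separate cultures, so the p-values reflect the spread among these samples alone, and that spread may be technical. The question was what activating Notch does to leukaemia cells of this kind.

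LILRs are cell surface receptors of myeloid and lymphoid cells whose genes lie side by side in the leukocyte receptor complex. The LILRB members and LAIR1 are inhibitory: their tails carry immunoreceptor tyrosine-based inhibitory motifs (ITIMs), which bind the phosphatases encoded by PTPN6 and PTPN11 once phosphorylated by Src family kinases. The LILRA members of the cell membrane have short tails and signal through the adaptor encoded by FCER1G, which activates the kinase SYK. LILRB1 and LILRB2 bind MHC class I molecules, and LAIR1 binds collagens. The genes are so alike that array probes can bind the transcripts of several of them. Of the 21 probe sets, 16 carry a suffix (_x_at, _s_at or _a_at) that marks probes shared between transcripts, and 5 do not. For _a_at these can be transcripts of the same gene.

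Across probe sets, r was 0.996 to 0.998 within groups and 0.984 to 0.988 between them. Untreated replicate 3 stood apart on a principal component with 9.93% of the variance, after one with 75.9% that split the groups. Values without that array are given where they move a result of the receptors. Of 8 measured genes listed as monocytic cell markers 5 were higher and 3 lower with Dll4-Fc, where 11.6% of all genes were higher and 15% lower. The list includes the granule protein genes ELANE and MPO. CD14 was 49.9-fold higher, LYZ 3.997-fold, CSF1R 3.37-fold, ITGAM 3.27-fold and SPI1 1.24-fold, while ELANE, MPO and CEBPA fell by 0.97, 0.79 and 0.21 on the log2 scale. Their part in the receptor results was not tested. The summed intensity of the 8 ran from 20640 to 21700 in untreated and from 28100 to 29320 in Dll4-Fc arrays. This sum mixes genes that rose and fell, and ELANE was the brightest of them in untreated arrays (13.53 on the log2 scale). Of 10 measured lymphoid and erythroid markers 0 passed the test, with summed intensities of 548.2 to 564.9 and 532.1 to 583.3. A shift in the mixture of cells and a shift in RNA per cell cannot be told apart in bulk samples.

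LILRB1, LILRB2, LILRB3 and LILRA1 gave higher signals after Dll4-Fc, by modest amounts of at most 1.58-fold. LAIR1, LILRA2, LILRA5 and LILRB5 had no probe set past the threshold. Of the 21 probe sets 7 were higher and 0 lower at a limma adjusted p under 0.05, where 7.21% of all probe sets were higher and 9.25% lower. None of the 7 reached 2-fold, which 1.65% of all probe sets did. The groups did not overlap for 12 of the 21, against 33.2% of all probe sets. The log2 difference (Dll4-Fc minus untreated) was positive for 18 of the 21, and for 46.1% of all probe sets. Its median was 0.21, and -0.016 over all probe sets. Among the 11 probe sets of the inhibitory receptors 6 were higher and the median difference was 0.33; among the 10 of the activating receptors 1 was higher and the median was 0.19. Whether the inhibitory and activating receptors differ in this was not tested.

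**Figure D1:**
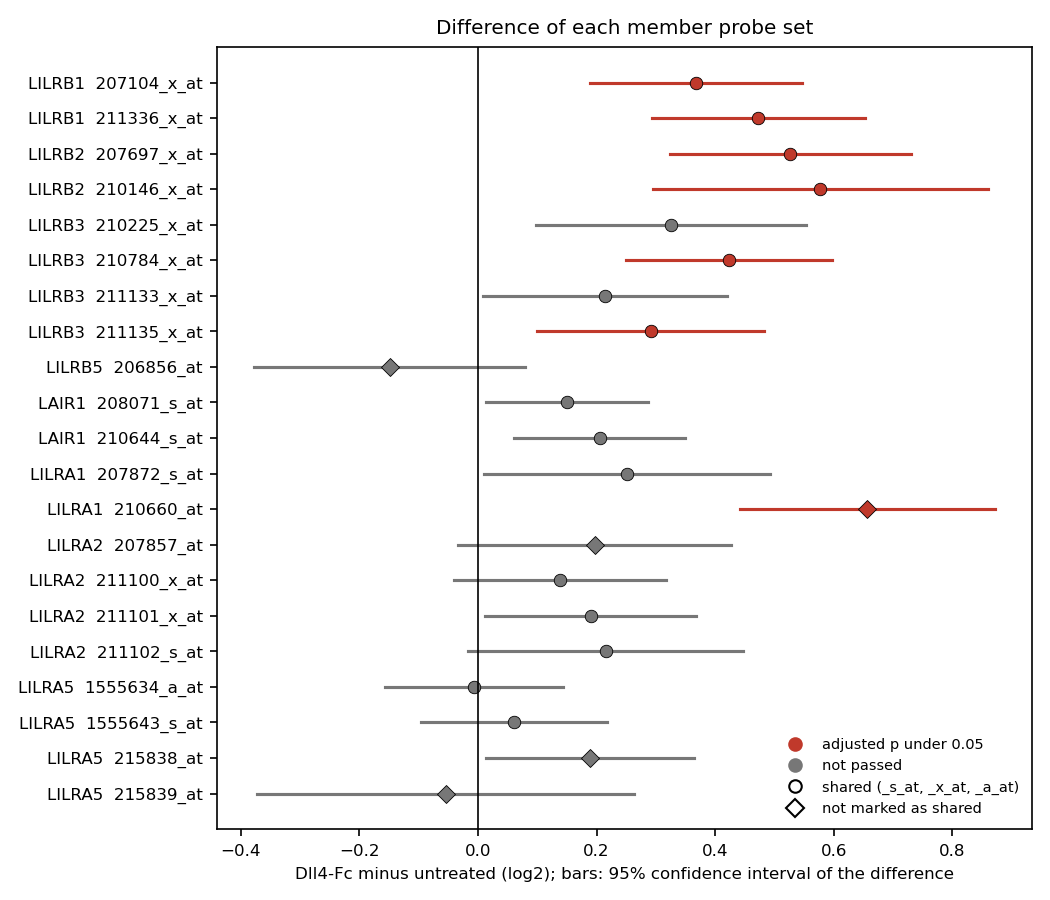
Log2 difference of each probe set (Dll4-Fc minus untreated) with its 95% confidence interval as a bar; red marks an adjusted p under 0.05, circles are shared probe sets and diamonds the others. The 7 red probe sets belong to LILRB1, LILRB2, LILRB3 and LILRA1, and those of LILRA5 and LILRB5 lie between -0.15 and 0.19.

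Of the 7 calls, 4 held when any 1 of the 6 arrays was left out, 1 each for LILRB1 (211336_x_at), LILRB2 (207697_x_at), LILRB3 (210784_x_at) and LILRA1 (210660_at). The number of higher probe sets was 4 in the absence of untreated replicate 2 and also of Dll4-Fc replicate 3, and 9 in that of untreated replicate 3. It was 11 after cyclic loess normalization, which gave 4813 higher and 4070 lower probe sets over the whole array in place of 3941 and 5059. With shared probe sets left out, 5 probe sets of 4 genes remained, and 1 was higher, that of LILRA1.

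LILRB1, an inhibitory receptor for MHC class I, rose on both of its probe sets. On 211336_x_at the log2 intensities were 7.803, 7.997 and 7.878 in untreated and 8.280, 8.387 and 8.429 in Dll4-Fc arrays. Every Dll4-Fc array lay above every untreated one. The difference was 0.47 ± 0.08 (SE, n = 3 arrays per group), or 1.39-fold, with an adjusted p of 0.00475. On 207104_x_at it was 0.37 ± 0.08 (adjusted p = 0.0148), from 7.99, 7.94 and 7.85 to 8.30, 8.19 and 8.39, again without overlap. This call was lost without untreated replicate 2 (adjusted p = 0.0514), Dll4-Fc replicate 1 (0.0597) or Dll4-Fc replicate 3 (0.05).

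LILRB2, the other classical MHC class I receptor of the inhibitory branch, also rose on both probe sets. On 207697_x_at the untreated arrays read 6.33, 6.52 and 6.58 and the Dll4-Fc arrays 7.02, 6.90 and 7.09. The groups were separate, and the difference was 0.53 ± 0.09 or 1.44-fold (adjusted p = 0.0052). The probe set 210146_x_at read 3.22, 3.13 and 3.57 in untreated and 3.79, 3.83 and 4.02 in Dll4-Fc arrays, a difference of 0.58 ± 0.12 (adjusted p = 0.015). Its mean signal lay at the 12th percentile of all probe sets, where the size of a change is uncertain. The call was lost without untreated replicate 1 (adjusted p = 0.0547), untreated replicate 2 (0.0538) or Dll4-Fc replicate 3 (0.0552). Both LILRB1 and both LILRB2 probe sets are of the _x_at kind, so the arrays cannot assign the signal to 1 of these genes alone.

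LILRB3, an inhibitory receptor of myeloid cells, was split: of its 4 probe sets, all shared, 2 rose and 2 did not pass. All 4 are of the _x_at kind, so the arrays cannot assign the signal to LILRB3 alone. The clearest was 210784_x_at, at 6.87, 6.84 and 6.99 in untreated and 7.25, 7.42 and 7.30 in Dll4-Fc arrays. The groups did not overlap there, and the difference was 0.42 ± 0.08 or 1.34-fold (adjusted p = 0.00686). On 211135_x_at the difference was 0.29 ± 0.08 with an adjusted p of 0.0493, and the call was lost on leaving out any array but untreated replicate 3 (adjusted p up to 0.161). The remaining probe sets differed by 0.33 ± 0.10 (210225_x_at, adjusted p = 0.0617) and 0.21 ± 0.09 (211133_x_at, 0.16). On all 4, untreated replicate 3 was the highest of the untreated arrays. Without that array all 4 passed, with 0.40 for 210225_x_at (adjusted p = 0.0337) and 0.30 for 211133_x_at (0.033).

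LAIR1, the collagen receptor, had bright and tightly replicated signals and small differences. On 210644_s_at the arrays read 11.07, 11.03 and 10.99 without and 11.19, 11.24 and 11.26 with Dll4-Fc, and on 208071_s_at 8.89 on each untreated array against 9.07, 9.02 and 9.03. Neither probe set had overlapping groups. The differences were 0.20 ± 0.06 (95% interval 0.06 to 0.35, adjusted p = 0.0625) and 0.15 ± 0.06 (0.01 to 0.29, adjusted p = 0.14), and neither passed over all probe sets. They passed under 5 and 3 of the other settings, as with cyclic loess (adjusted p = 0.0199 and 0.0403) and without dim probe sets (0.0191 and 0.0427).

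LILRB5, a less studied inhibitory member, had 1 probe set, not shared, and it did not pass. It read 4.12, 4.20 and 4.45 in untreated and 4.18, 4.13 and 4.02 in Dll4-Fc arrays, with overlapping groups. The difference was -0.15 ± 0.10 (95% interval -0.38 to 0.08), and -0.051 without untreated replicate 3, the highest untreated array. Its level lay at the 24th percentile of probe sets, so a change near background may be missed.

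**Figure D2:**
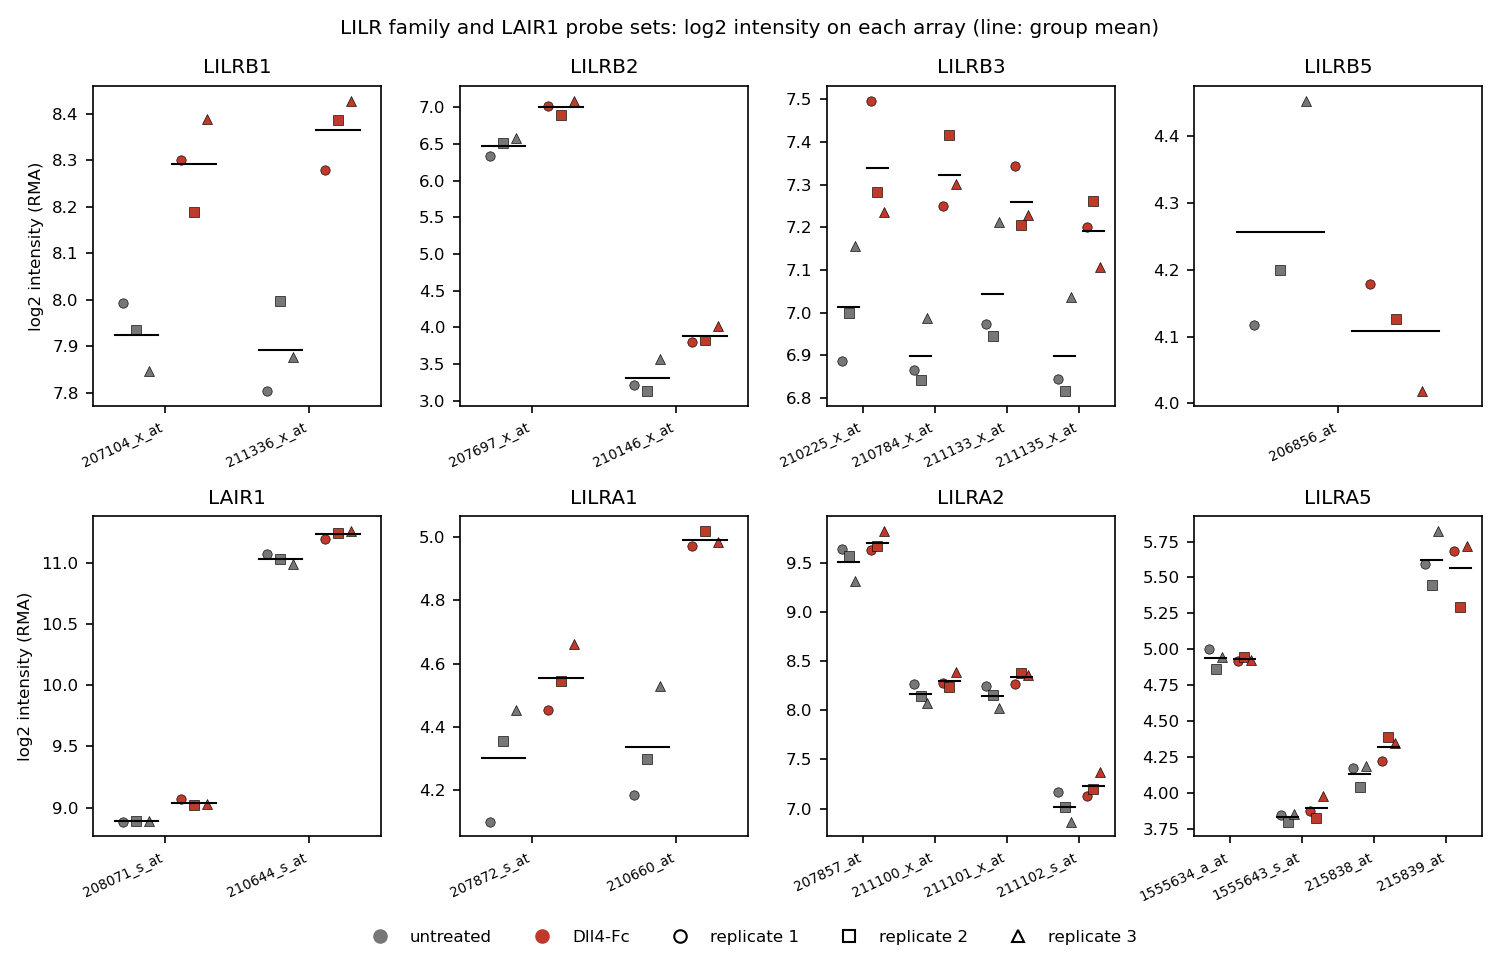
Log2 intensity (vertical axis, scaled per gene) of each probe set (horizontal axis) on each array, grey for untreated and red for Dll4-Fc, with a marker shape per replicate number and a line at the group mean. LILRB1, LILRB2 and LAIR1 show groups without overlap on every probe set, while those of LILRA2 and LILRA5 mostly overlap.

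Among the activating receptors, only LILRA1 had a probe set past the threshold. On 210660_at, which is not marked as shared, the untreated arrays read 4.18, 4.30 and 4.53 and the Dll4-Fc arrays 4.97, 5.02 and 4.98. The 3 Dll4-Fc values lay close together, above all untreated ones, and the difference was 0.66 ± 0.09 or 1.58-fold (95% interval 0.44 to 0.87, adjusted p = 0.00234). The other LILRA1 probe set, the shared 207872_s_at, read 4.10, 4.35 and 4.45 against 4.45, 4.54 and 4.66. It overlapped between groups and did not pass (0.25 ± 0.10, 95% interval 0.01 to 0.49, adjusted p = 0.16). By mean signal both were dim, at percentiles 32.7 and 28.5 of all probe sets, so the fold of LILRA1 is uncertain in size. With an offset of 16 added to the intensities its gene-level difference was 0.40, against 0.46 for LILRB2 and 0.45 for LILRB1, and with the mean of a gene's probe sets it was 0.45, against 0.55 for LILRB2.

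LILRA2, an activating receptor that recognizes antibodies cut by microbial proteases, did not pass on any of its 4 probe sets. The unshared 207857_at read 9.63, 9.57 and 9.32 in untreated and 9.62, 9.67 and 9.82 in Dll4-Fc arrays, with overlap, a difference of 0.20 ± 0.10 (95% interval -0.03 to 0.43, adjusted p = 0.253). The 3 shared probe sets gave 0.14, 0.19 and 0.22 (adjusted p 0.151 to 0.307). On all 4, untreated replicate 3 was the lowest untreated array, the opposite of its place for LILRB3. Without it the 4 differences were 0.10, 0.096, 0.13 and 0.14, and 0 passed.

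LILRA5, an activating receptor of monocytes and neutrophils, had 4 probe sets and differences of -0.01, 0.06, 0.19 and -0.05, none past the threshold (adjusted p 0.148 to 0.968). Only 215838_at had groups without overlap, at 4.17, 4.04 and 4.19 against 4.22, 4.39 and 4.35. The brightest, 215839_at, read 5.59, 5.45 and 5.82 against 5.68, 5.29 and 5.72, with a 95% interval of -0.37 to 0.26, and its difference was 0.048 without untreated replicate 3. By mean signal all 4 lay below the median probe set (5.70), as did 8 of the 21.

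With each gene represented by its brightest probe set and p-values adjusted over 19775 genes, 5 of the 8 members were higher and 0 lower, where 11.6% of all genes were higher and 15% lower. Groups did not overlap for 5 of the 8, against 41.6% of all genes. These were LILRA1, LILRB2, LILRB1, LILRB3 and LAIR1. The last 2 passed there (adjusted p = 0.0418 and 0.0259) although the same probe sets did not pass over all probe sets. LAIR1 kept its call only on leaving out untreated replicate 1, and LILRB3 did not without any 1 of untreated replicates 1 and 2 and Dll4-Fc replicates 1 and 2 (adjusted p up to 0.0882 and 0.294). The number of higher members was 3 when untreated replicate 2 or either of Dll4-Fc replicates 1 and 2 was left out.

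The stretches upstream of LILRB1, LILRB2 and LILRA1 are printed because these genes rose and share almost the same sequence there. They are set beside that of LILRA5, which is related but whose probe sets did not pass, and that of LILRB3. The match of the LILRB3 window to the others printed lay near the baseline given below. Each is the 250 bases before an annotated transcript start in RefSeq (GRCh38.p14), written 5′ to 3′ along the gene's own strand. All lie on chromosome 19. Genes have up to 3 such starts, and the start shown was chosen after the sequences were seen. Capitals mark TGGGAA, the core that RBPJ, the DNA-binding partner of Notch, recognizes, and GGAAGT, a core of ETS factors such as the one encoded by SPI1, on either strand.
LILRB1 (chr19:54630234-54630483, plus strand): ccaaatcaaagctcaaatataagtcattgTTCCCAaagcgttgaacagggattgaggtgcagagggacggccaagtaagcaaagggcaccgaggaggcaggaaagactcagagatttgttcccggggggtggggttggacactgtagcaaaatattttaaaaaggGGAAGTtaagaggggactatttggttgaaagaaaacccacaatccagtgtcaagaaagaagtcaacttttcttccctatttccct
LILRB2 (chr19:54281111-54281360, minus strand): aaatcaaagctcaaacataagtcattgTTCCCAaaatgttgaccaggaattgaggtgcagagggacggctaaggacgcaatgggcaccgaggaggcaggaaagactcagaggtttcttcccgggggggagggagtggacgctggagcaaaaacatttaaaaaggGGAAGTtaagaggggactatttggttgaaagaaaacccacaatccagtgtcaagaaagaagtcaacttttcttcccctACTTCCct
LILRA1 (chr19:54593382-54593631, plus strand): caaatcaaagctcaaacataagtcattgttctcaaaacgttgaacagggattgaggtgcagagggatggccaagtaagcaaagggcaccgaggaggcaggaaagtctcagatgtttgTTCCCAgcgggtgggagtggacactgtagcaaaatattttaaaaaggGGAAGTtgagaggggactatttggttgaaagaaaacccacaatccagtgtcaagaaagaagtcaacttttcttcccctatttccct
LILRA5 (chr19:54313167-54313416, minus strand): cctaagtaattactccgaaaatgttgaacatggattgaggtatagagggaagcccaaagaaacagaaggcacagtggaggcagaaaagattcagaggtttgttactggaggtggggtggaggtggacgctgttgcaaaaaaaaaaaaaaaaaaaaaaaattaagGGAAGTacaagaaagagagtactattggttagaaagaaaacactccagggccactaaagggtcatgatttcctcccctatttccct
LILRB3 (chr19:54223008-54223257, minus strand): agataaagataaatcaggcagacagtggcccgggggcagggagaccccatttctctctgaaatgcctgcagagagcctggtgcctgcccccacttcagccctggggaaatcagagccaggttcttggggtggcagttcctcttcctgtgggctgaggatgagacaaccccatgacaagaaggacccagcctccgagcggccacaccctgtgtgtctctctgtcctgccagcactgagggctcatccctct
The LILRB1 and LILRA1 windows were identical in 94.4% of the columns of a global alignment, LILRB1 and LILRB2 in 90.5%, and LILRB2 and LILRA1 in 90.4%. The LILRA5 window matched these in 65.8% (LILRB1), 65.2% (LILRB2) and 64.6% (LILRA1). The LILRB3 window matched the printed ones in 44.8% (LILRB1), 46.0% (LILRB2), 45.3% (LILRA1) and 41.2% (LILRA5), and that of LILRB4 in 72%. Upstream of the other LILRA1 start, not printed, the window matched LILRB3 in 64.5% and an LILRA2 window in 72.2%. An LILRB2 window not printed matched an LILRA2 window in 75.6% and LILRB3 in 40.3%. As a baseline, the windows of LAIR1, the more distant relative, matched those of the LILR genes in 41.5% to 52.2% of columns.

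The GGAAGT match lay at bases 86 to 81 before the start in LILRB2, LILRA1 and LILRA5, and at 85 to 80 in LILRB1. LILRB2 had another at 8 to 3. The TGGGAA match, on the reverse strand, lay at 221 to 216 in LILRB1, 223 to 218 in LILRB2 and 133 to 128 in LILRA1. The printed LILRA5 window had no TGGGAA, and that of LILRB3 had neither. The LILRB5 window and both LAIR1 windows held TGGGAA, and both LILRA2 windows GGAAGT. No probe set of these genes passed over all probe sets, and LAIR1 was higher in the gene-level fit (adjusted p = 0.0259). LILRB3 rose on 2 probe sets. Whether either motif bears on the differences was not tested. Over the 16 windows of the 9 genes, some of which overlap, 8 held TGGGAA and 8 GGAAGT, against 20.8% and 19.5% of 35116 windows of all genes. These 2 motifs can share bases, and did not in the windows printed. The interferon-stimulated response element, searched as GAAA repeated 2 bases apart, was in 0 of the 16 and in 3.02% of all windows, and TTNNGCAA, a core of C/EBP factors, in 1 and in 9.05%. A match describes the letters only.

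**Figure D3:**
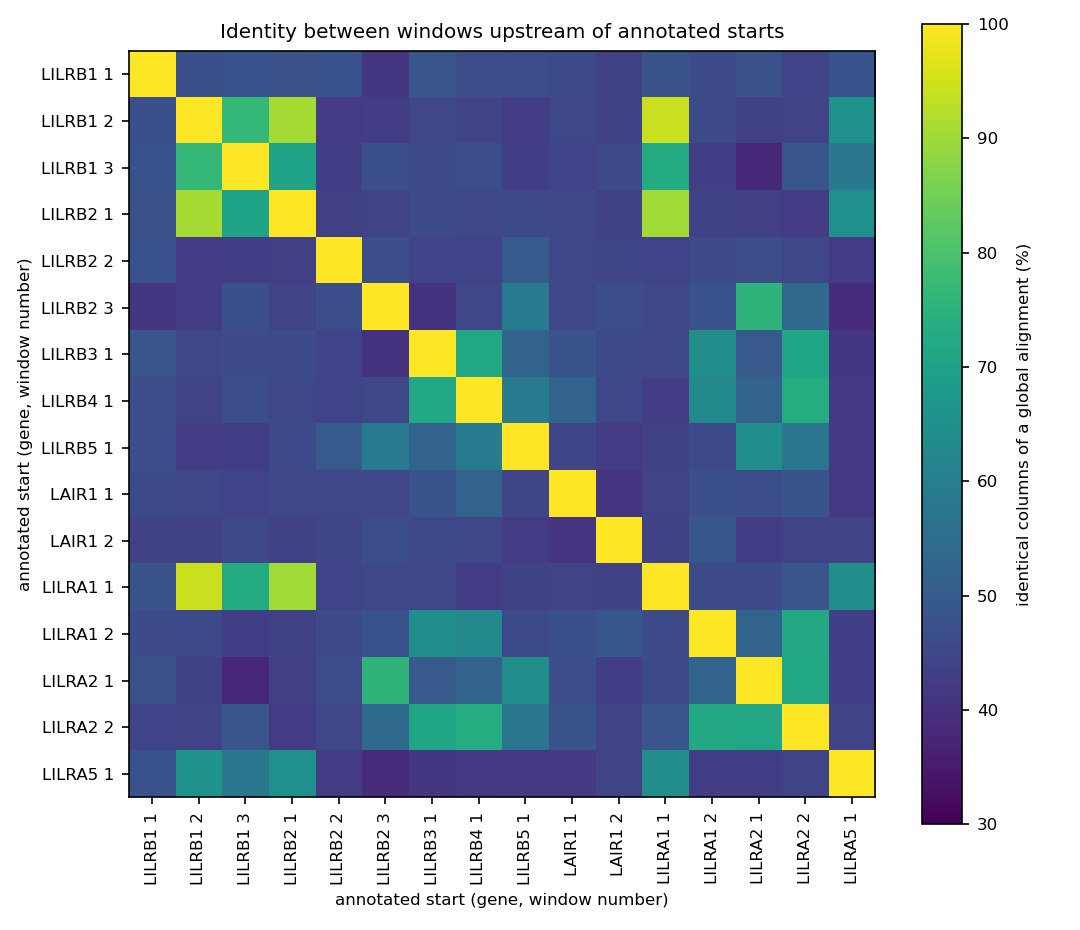
Percentage of identical columns between the 250-base windows upstream of 16 annotated starts, numbered from the most upstream start of each gene, shown by colour. LILRB1 window 2, LILRB2 window 1 and LILRA1 window 1 meet in the brightest cells off the diagonal, at 90.4% to 94.4% of identical columns.

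Genes of the signalling machinery of these receptors moved in both directions. Of 28 measured of 30 listed 8 were higher, 4 of them at least 2-fold, and 3 lower. Of all genes 11.6% were higher, 2.6% were higher by at least 2-fold, and 15% were lower. The median difference of the list was 0.07, and -0.014 over all genes. FCER1G, the adaptor of the activating LILRs, rose from 11.86 ± 0.05 to 13.48 ± 0.05 (SD, n = 3), a difference of 1.63 ± 0.06 (SE) or 3.09-fold (adjusted p = 1.64e-06), and TYROBP, a related adaptor, rose by 0.53 ± 0.05. BLNK, a scaffold downstream of SYK, rose 5.43-fold (2.44 ± 0.11) and the Src family kinase FYN 2.31-fold (1.21 ± 0.13). Without shared probe sets FYN gave 0.10 (adjusted p = 0.654), on a dim probe set at 5.31 and 5.42 in the group means. The other shared FYN probe sets rose by 0.88 and 0.87.

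The Src family kinases LYN and FGR, named after their values were seen, rose by 0.77 ± 0.06 and 0.83 ± 0.07. SYK differed by -0.13 ± 0.05 (adjusted p = 0.127), and the ITIM-binding phosphatase genes PTPN6 by 0.14 ± 0.06 (0.121) and PTPN11 by 0.16 ± 0.05 (0.0513), none past the threshold. PTPN6 passed as higher after cyclic loess (adjusted p = 0.0328) and with a trended robust prior (0.0494), and PTPN11 under 5 settings, as after cyclic loess (0.0194). SYK passed as lower with the trended robust prior (0.0179), and INPP5D, a lipid phosphatase recruited by inhibitory receptors, differed by -0.12 ± 0.05 (0.152) and passed as lower with array weights (0.0432). PLCG2, a phospholipase activated through SYK, fell by 0.44 ± 0.06 and PIK3CD, a phosphoinositide kinase subunit, by 0.44 ± 0.05. GRB2, an adaptor, fell by 0.19 ± 0.05 (adjusted p = 0.0411), a call lost on leaving out any array but untreated replicate 3 (adjusted p up to 0.126).

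Of the genes of reported LILR and LAIR1 ligands 22 of 26 were measured, and 14 were higher, 5 of them at least 2-fold, and 1 lower (median 0.31). Over all genes these shares were 11.6%, 2.6% and 15%. The complement chains C1QC and C1QB, parts of a collagen-like ligand of LAIR1, rose 35.2-fold (5.14 ± 0.25) and 7.93-fold (2.99 ± 0.16), and APOE, a lipoprotein reported to bind LILRB4, 8.35-fold (3.06 ± 0.11) on the probe set that represents it. Its other probe sets rose 4.70-fold and 3.18-fold. When 1 of the Dll4-Fc arrays was left out, the probe set that rose 3.18-fold became the brightest and stood for the gene. The gene's difference was then 1.64 to 1.70 over the 3. MHC class I genes, the ligands of LILRB1 and LILRB2, rose by less. B2M, their shared light chain, rose from 14.18 ± 0.01 to 14.38 ± 0.01 (0.20 ± 0.05, adjusted p = 0.0192), and by 0.58 on the probe set not marked as shared. The call on its brightest probe set was lost without any 1 of untreated replicates 1 and 2 and Dll4-Fc replicates 1 and 2 (adjusted p up to 0.0691). All 5 measured heavy chain genes, named after their values were seen, rose: HLA-E by 0.72 ± 0.07, HLA-F by 0.50 ± 0.06, HLA-G and HLA-B by 0.32 each and HLA-C by 0.25 ± 0.06. Their transcripts are alike enough to share probes. Among collagens, the LAIR1 ligands proper, COL4A1 fell by 0.36 ± 0.08 (adjusted p = 0.0121, and 0.0537 without Dll4-Fc replicate 1), and its other probe set did not pass over all probe sets (adjusted p = 0.0725). COL1A1, COL1A2 and COL3A1 differed by 0.09, 0.07 and -0.07 and did not pass, while 1 of the 5 COL1A1 probe sets was higher by 0.81 (adjusted p = 0.000703). That probe set was dim, at 3.06 in untreated and 3.86 in Dll4-Fc arrays, so the size is uncertain. FN1, another listed ligand, named after its values were seen, did not pass on its brightest probe set (0.05). Of its other probe sets some, all shared, rose by 1.03 to 1.38, and the rest (-0.002 and 0.26) did not pass. The ligand list had 8 of 15 higher without shared probe sets.

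Other paired receptors of myeloid cells spanned a wider range than the members. Of 17 measured inhibitory receptors outside the family 9 were higher and 0 lower (median 0.36), where 11.6% and 15% of all genes were. CLEC12A, a C-type lectin, rose by 1.05 ± 0.17, FCGR2B, the inhibitory IgG receptor, by 0.99 ± 0.13 and CD300A, a lipid-binding receptor, by 0.73 ± 0.08. Without shared probe sets CLEC12A gave 0.30 (adjusted p = 0.0797) and CD300A 0.17 (0.58). Both of these probe sets were dim, at 4.88 and 5.18 (CLEC12A) and 5.04 and 5.21 (CD300A) in the group means. FCGR2B has only a shared probe set, so it was not tested there. Another shared CD300A probe set rose by 0.83. Of 13 activating receptors 4 were higher and 1 lower (median 0.17), beside the same shares of all genes. CLEC7A, the beta-glucan receptor, rose 21.3-fold (4.42 ± 0.14), TREM2, a lipid receptor paired with TYROBP, 2.6-fold (1.38 ± 0.05) and OSCAR, which binds collagens, 1.55-fold (0.63 ± 0.10). SIRPB1 fell by 0.57 ± 0.11 (adjusted p = 0.00611). CLEC7A gave 0.009 (adjusted p = 0.951) on its only probe set not marked as shared, which read 2.91 and 2.92 in the group means, while 4 of its 6 probe sets rose.

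**Figure D4:**
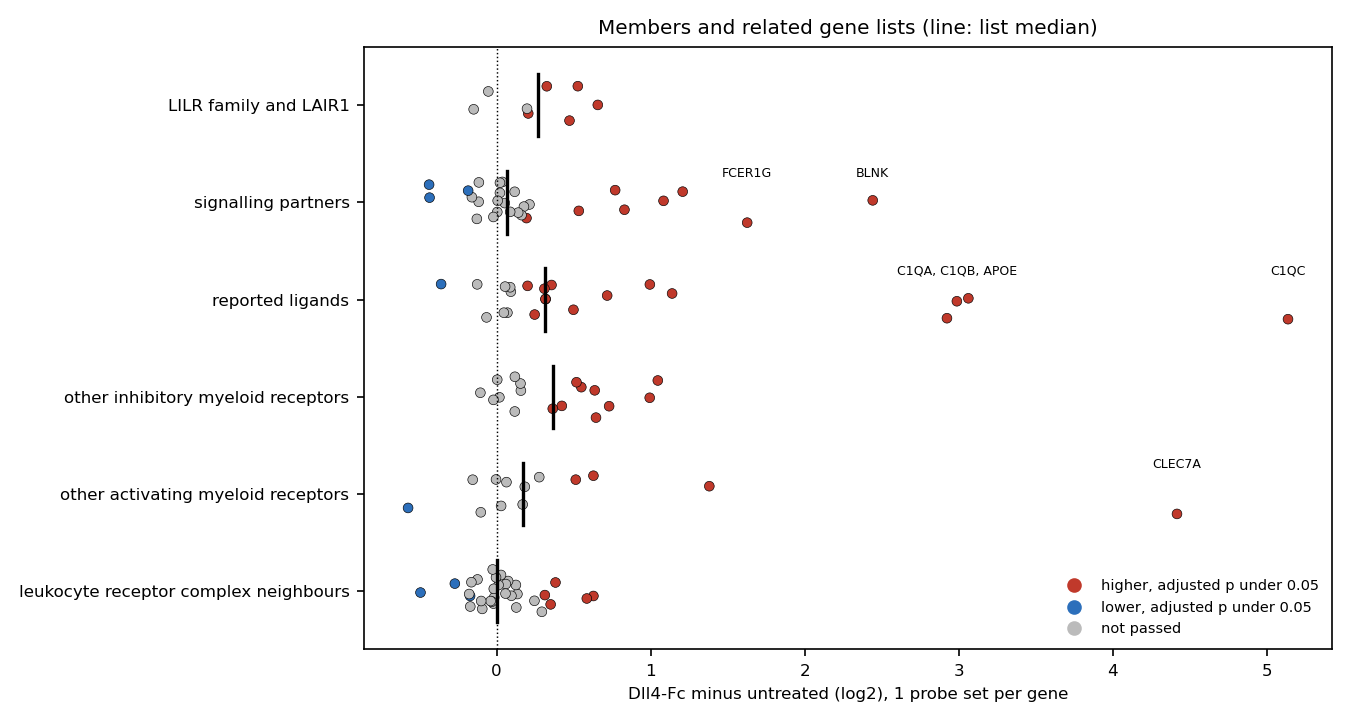
Log2 difference of each gene (Dll4-Fc minus untreated; horizontal axis, 1 probe set per gene), for the members and 5 related lists; red and blue mark higher and lower at an adjusted p under 0.05, grey did not pass, and the line is the list median. The members lie between -0.15 and 0.66, and the ligand and receptor lists reach 5.14 (C1QC) and 4.42 (CLEC7A).

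Of 32 measured genes that neighbour the LILRs in the leukocyte receptor complex, 5 were higher and 3 lower, where 11.6% and 15% of all genes were, with a median of 0.004. The remaining LILR genes were among them. LILRA3, which encodes a secreted receptor, rose from 5.58 ± 0.13 to 5.96 ± 0.14 (0.38 ± 0.09, adjusted p = 0.0213), a call lost without any 1 of untreated replicates 1 and 2 and Dll4-Fc replicates 1 and 2 (adjusted p up to 0.0827). LILRA4, a receptor of plasmacytoid dendritic cells, differed by 0.25 ± 0.12 (adjusted p = 0.203, and 0.0237 without untreated replicate 3). LILRA6, a close copy of LILRB3, differed by 0.01 ± 0.07 (0.925), and LAIR2, the secreted relative of LAIR1, by -0.12 ± 0.09 (0.365). OSCAR and KIR2DL4 (0.59 ± 0.08), a receptor of natural killer cells, were the other large rises. The only OSCAR probe set carries the suffix _a_at, which need not mean sharing with another gene. Those of KIR2DL4 are of the _x_at kind, so the arrays cannot assign its signal to that gene alone. TMC4 fell by 0.49 ± 0.10, CNOT3 by 0.27 ± 0.08 and RDH13 by 0.17 ± 0.05, and the last 2 gave -0.02 and -0.03 without shared probe sets (adjusted p = 0.917 and 0.843). The number of lower neighbours was 1 without any 1 of untreated replicates 1 and 2 and Dll4-Fc replicates 1 and 2.

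The 5 genes outside the family whose values over the 6 arrays lay closest to those of LILRA1, after the untreated mean of each was subtracted, were LOXL3, BHLHE40, KIR2DL4, GLA and TMEM86A. Their Euclidean distances were 0.066, 0.13, 0.152, 0.163 and 0.172 on the log2 scale, and their differences 0.66, 0.69, 0.59, 0.64 and 0.59. Among the family members, LILRB2 was closest to LILRA1, at 0.306, and LILRB1 next, at 0.422.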

How the data were processed

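Gene expression was measured in 6 THP1 samples, 1 array each. The deposited values are intensities on a linear scale, 1 per probe set and array, made by the authors with RMA per the submitters' processing notes, which name no version. RMA corrects background, equalizes array distributions and shrinks differences of dim probe sets. The intensities (array medians 50.64 to 52.74) were log2 transformed without a filter. Probe sets were named from the platform annotation: 41097 had 1 symbol, 1801 several and 11777 none. The comparison used lmFit and eBayes of limma 3.58.1 (R 4.3.3, 2-sided, 4 residual degrees of freedom), with Benjamini-Hochberg adjustment over all 54675 probe sets for the probe sets of the receptors, and over 19775 genes, each by its brightest probe set, for gene lists. The threshold was 0.05. Precision is limited by the number of arrays, with a median standard error of 0.086. The procedure was run on simulated data with planted changes and independent noise for each probe set, a simpler setting than that of these related probe sets. Alternatives were a replicate block, cyclic loess, median centring, leaving out dim or shared probe sets, an offset of 16, a trended robust prior, array weights, the mean of a gene's probe sets, and leaving out each array. Named are all probe sets of the receptors, up to 3 rises and 3 falls per list, and further genes fixed by name (FCER1G, TYROBP, SYK, PTPN6, PTPN11, INPP5D, B2M, LILRA3, LILRA4, LILRA6 and LAIR2). The most similar genes were those nearest in profile to the receptor gene with the largest difference. The receptors and lists were chosen with earlier results of these data known. Upstream windows were aligned globally and searched for the motifs on both strands.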

Additional observations from a re-analysis of the deposited data

How the results depend on the processing

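Directions of the 7 called probe sets held under all alternatives run. The number of higher probe sets was 7, 11 after cyclic loess, 1 of 5 without shared probe sets and 4 to 9 when 1 array was left out. That of higher member genes was 5, 3 with the replicate block, 1 of 4 without shared probe sets and 3 to 4 when 1 array was left out. The labels do not say whether equal replicate numbers pair the samples. Deviations of same-numbered arrays correlated at -0.022, -0.14 and -0.13, which cannot decide it with 3 arrays per group. With the block 6 probe sets of the receptors were higher, and 211135_x_at of LILRB3 lost its call (adjusted p = 0.122). At the gene level LILRB3 (adjusted p = 0.099) and LAIR1 (0.098) lost theirs. Sign changes concerned values near 0: with array weights LILRA5 gave 0.022 (1555634_a_at) and 0.056 (215839_at, 0.053 in the gene-level fit), with the mean of probe sets 0.047, and when 1 array was left out -0.043 to 0.025 and -0.141 to 0.082. LILRA6 ranged from -0.036 to 0.058 when 1 array was left out. The median difference of the 21 probe sets ran from 0.192 to 0.261 over the settings that test all 21, and was 0.188 over the 5 not shared. Without shared probe sets 5 of 20 signalling partners, 5 of 11 inhibitory receptors, 2 of 12 activating receptors, 8 of 15 ligands and 1 of 19 neighbours were higher, and 1 neighbour was lower. Signalling partners had 13 higher after cyclic loess, and 7 when any 1 array was left out. Activating receptors had 2 higher without dim probe sets, and 2 lower without dim probe sets, with the offset, the trended robust prior or array weights. Ligands had 12 to 15 higher and 0 to 1 lower when 1 array was left out. Lower neighbours numbered 1 with the replicate block, cyclic loess, median centring or the mean of probe sets, 6 without dim probe sets, with the offset or array weights, 5 with the trended robust prior, and 1 to 3 when 1 array was left out. Over all probe sets the number of lower calls, 5059, was 2906 to 5626 when 1 array was left out, lowest without Dll4-Fc replicate 2, and 3121 without shared probe sets, with 2169 in place of 3941 higher. Over all genes it was 2964, and 1854 without Dll4-Fc replicate 1. Cyclic loess turned the share of higher among all called probe sets from 43.8% to 54.2%. Without dim probe sets LILRA1, LILRA5, LILRB5 and 1 LILRB2 probe set were not tested. The cause of these changes was not tested, apart from the smaller number of probe sets or samples that some settings leave.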
